A study of Homo sapiens with 15 samples.

Results

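SOX2, SOX15, TFAP2A, TFAP2C, KLF4, KLF5, GRHL2, TP73 and BNC1 are squamous lineage transcription factors, and their RNA was followed in HSC-5 cutaneous squamous cell carcinoma cells in which PRMT5 or WDR77 was edited with CRISPR. The members were chosen by gene symbol, and these 9 genes were among the 60649 genes listed in every library. Cas9-expressing cells received a lentiviral sgRNA and were selected with G418, and RNA was sequenced from 3 replicates in each of 5 conditions. sgNeg was an empty vector control labelled wild type, sgPRMT5-1 and sgPRMT5-2 were labelled PRMT5 knockout, and sgWDR77-1 and sgWDR77-2 were labelled WDR77 knockout. All 15 libraries carried the treatment label neomycin. PRMT5KO and WDR77KO name the 6 libraries of both sgRNAs of a gene. The cells are a single cancer line grown in culture, without stroma or immune cells, so the values describe this line and not squamous carcinoma in general.

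PRMT5 places symmetric methyl marks on arginines of histones and other proteins, and WDR77 is the partner protein with which it forms its active complex. Squamous epithelium is held in its basal state by p63, which works on enhancers together with AP-2 factors, SOX2 and KLF5. KLF4 and GRHL factors act in the same cells during differentiation and in keeping epithelial junctions.

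PRMT5 and WDR77 were read in every library as a check of the labels. PRMT5 was at 59.1, 49.6 and 67.8 CPM (reads relative to library size, scaled for composition) in the sgNeg replicates. It was at 33.0, 35.8 and 41.4 CPM with sgPRMT5-1 and at 44.1, 44.5 and 39.4 CPM with sgPRMT5-2. All 6 PRMT5KO libraries lay below every sgNeg library, although much of the transcript remained. PRMT5 fell in PRMT5KO by a log2 fold change of -0.57 (adjusted p = 0.00874 by limma voom with Benjamini-Hochberg adjustment, standard error 0.119). With sgWDR77-1 and sgWDR77-2 PRMT5 RNA was at 54.5, 64.2, 54.4 and 79.9, 65.2, 64.4 CPM, and its WDR77KO value of 0.12 did not pass the threshold of an adjusted p under 0.05 (adjusted p = 0.733, limma voom). Editing can remove a protein while leaving its RNA, so the RNA level gives no measure of the protein that was left.

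WDR77 was at 125, 114 and 119 CPM in sgNeg, at 30.8, 52.0 and 53.3 CPM with sgWDR77-1, and at 26.6, 24.9 and 22.0 CPM with sgWDR77-2. PRMT5-edited cells held it at 134, 119 and 156 CPM with sgPRMT5-1 and at 126, 130 and 119 CPM with sgPRMT5-2. The 6 WDR77KO libraries therefore carried far less WDR77 RNA than all other libraries, without overlap. WDR77 fell in WDR77KO by a log2 fold change of -1.86 (adjusted p = 0.0000900 by limma voom, standard error 0.216), and its PRMT5KO value was 0.11 (adjusted p = 0.394). The labels of all 15 libraries fitted the targeted transcripts.

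Marker genes were read to check the cell type. Of 8 squamous markers 7 reached 1 CPM, with KRT17 the most abundant at a mean of 928 CPM, while KRT14 stayed below 1 CPM. All 8 markers of simple or glandular epithelium passed 1 CPM as well, led by KRT8 at 1217 CPM. The cells thus had an epithelial profile that carried squamous genes without the basal keratin KRT14. Mesenchymal markers passed 1 CPM for 5 of 8 genes, with CDH2 highest at 68.6 CPM and VIM, ZEB1 and ZEB2 below 1 CPM. COL1A1 was the only fibroblast marker of 8 to pass 1 CPM, whereas 4 of 7 melanocyte markers (MITF highest) and 2 of 6 endothelial markers (CDH5 highest) did so. None of 6 leukocyte markers did, the highest being CD14 at 0.966 CPM.

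The summed squamous markers averaged 2405 CPM in sgNeg, 2248 with sgPRMT5-1, 1834 with sgPRMT5-2, 1816 with sgWDR77-1 and 2578 with sgWDR77-2. With sgWDR77-2 KRT17 and SFN were above their sgNeg means, while KRT5, KRT6A, DSG3 and PKP1 were below. Markers of simple or glandular epithelium summed to 2700, 2551, 3204, 1841 and 2366 CPM in the same order, highest with sgPRMT5-2 through KRT8 and KRT18, while KRT19, MUC1, FOXA1, GATA3 and AGR2 were lower there than in sgNeg. The summed mesenchymal markers averaged 98.1, 138, 183, 97.1 and 121 CPM in the same order. The summed mesenchymal RNA was thus highest in the PRMT5-edited cells through CDH2 and FN1, whereas SPARC went from 10.3 CPM in sgNeg to 0.754 and 0.767 CPM with sgPRMT5-1 and sgPRMT5-2. ZEB1 was at 0.387 CPM in sgNeg and at 0.866 and 1.55 CPM with these sgRNAs, and SNAI2, TWIST1 and VIM showed no such difference. From sgNeg to sgWDR77-2, in the same order, summed melanocyte markers averaged 18.8, 15.5, 16.5, 28.5 and 26.3 CPM. Endothelial markers summed to 21.4, 17.9, 16.6, 33.9 and 19.7 CPM. MITF averaged 9.38 CPM in sgNeg, 17.7 with sgWDR77-1 and 15.2 with sgWDR77-2, and CDH5 averaged 18.5, 31.7 and 17.6 CPM there. In bulk RNA, fewer cells of a kind and less RNA per cell cannot be told apart, and this holds for every member below.

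The members differed widely in abundance when counts were set against the summed exon length of each gene (CPM per kilobase). In sgNeg GRHL2, a keeper of epithelial junctions, was highest at a mean of 30.9 (SD 2.03), below TP63 at 46.4 (SD 1.11). KLF5 followed at 17.9 (SD 1.17), SOX15 at 15.8 (SD 1.47), BNC1 at 14.7 (SD 1.52), TFAP2C at 13.5 (SD 0.610) and KLF4 at 13.2 (SD 1.39). TFAP2A at 9.79 (SD 0.373) and SOX2 at 5.95 (SD 1.01) came next, and TP73 was last at 0.323 (SD 0.175). Neighbours from KLF5 down to KLF4 overlapped between replicates, so only the places of GRHL2, TFAP2A, SOX2 and TP73 were separated in sgNeg. The plot of CPM per kilobase shows the spread on a log axis, with TP63 for comparison. Counting the longest transcript instead of all exons moved TFAP2A up to place 2.

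**Figure D1:**
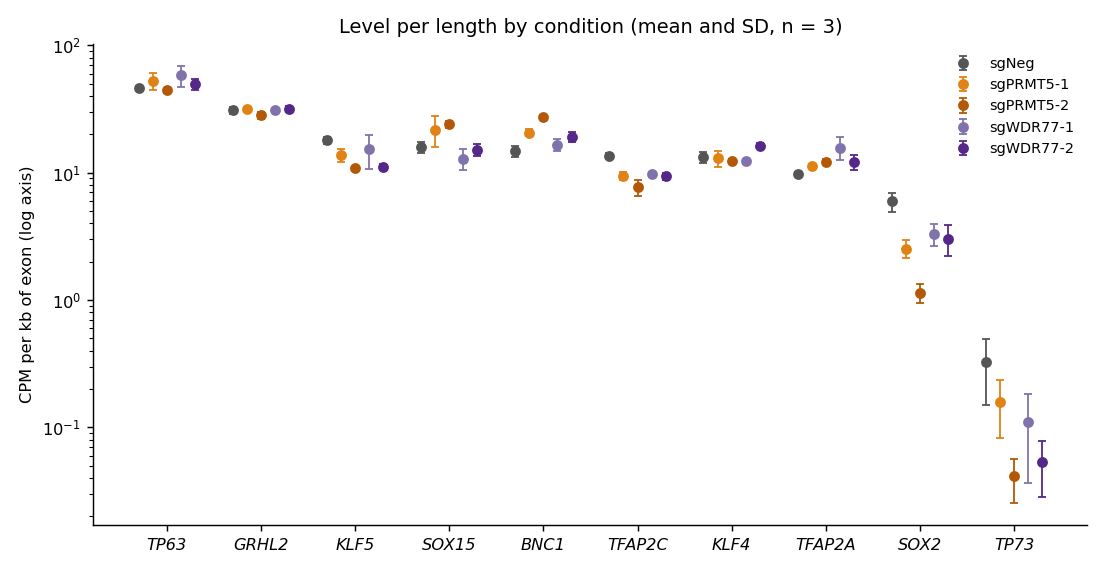
Abundance of the 9 members and TP63 per condition, in CPM per kilobase of exon on a log axis. Points are means and bars are SD of 3 libraries.

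GRHL2 held the top place and SOX2 and TP73 the last places in all 5 conditions, and only the middle of the order shifted. With sgPRMT5-1 the order after GRHL2 was SOX15, BNC1, KLF5, KLF4, TFAP2A and TFAP2C, where SOX15 and BNC1, KLF5 and KLF4, and KLF4 and TFAP2A overlapped. With sgPRMT5-2 it was BNC1, SOX15, KLF4, TFAP2A, KLF5 and TFAP2C, and there BNC1 overlapped GRHL2 and KLF4 overlapped TFAP2A. KLF5 thus stood directly after GRHL2 in sgNeg and at place 6 with sgPRMT5-2, while BNC1 moved the other way. With sgWDR77-1 the order was BNC1, TFAP2A, KLF5, SOX15, KLF4 and TFAP2C, with overlap between every neighbouring pair from BNC1 to KLF4. With sgWDR77-2 it was BNC1, KLF4, SOX15, TFAP2A, KLF5 and TFAP2C, with overlap of KLF4 and SOX15 and of TFAP2A and KLF5.

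The promoters of SOX2, KLF5 and BNC1 are shown because these genes had a promoter entry and were among the members whose RNA differed most clearly. Entries were read for 6 of the 9 members. TFAP2C and SOX15 had none, and GRHL2 was left out of this reading. Each run holds 250 bases before and 50 bases after a start site, 5′ to 3′ on the gene's strand (RefSeq, GRCh38.p14). Capitals mark matches on either strand to the letters AACAAT (SOX factors), GCCNNNGGC (AP-2 factors), CACCC (KLF factors), AACNNGTT (GRHL factors) and CATGNNNNNNCATG (p53 family), where N is any base. Such matches occurred in 10.1%, 23.2%, 59.9%, 3.52% and 0.373% of all 35116 promoters, respectively. The SOX2 promoter (chr3:181711675-181711974, plus strand) held an AP-2 match at -131 and a GRHL match at 14, counted from the start site. KLF5 (chr13:73058755-73059054, plus strand) held KLF matches at -177 and -32, and BNC1 (chr15:83284615-83284914, minus strand) held an AP-2 match at -154. These RNA libraries do not measure binding, and a match describes letters only.
SOX2: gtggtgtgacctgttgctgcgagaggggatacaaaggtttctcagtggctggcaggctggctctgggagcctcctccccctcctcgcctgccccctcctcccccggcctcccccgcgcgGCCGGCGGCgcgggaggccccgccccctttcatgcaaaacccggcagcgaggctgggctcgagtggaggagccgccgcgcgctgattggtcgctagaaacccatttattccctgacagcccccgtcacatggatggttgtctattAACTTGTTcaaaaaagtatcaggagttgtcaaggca
KLF5: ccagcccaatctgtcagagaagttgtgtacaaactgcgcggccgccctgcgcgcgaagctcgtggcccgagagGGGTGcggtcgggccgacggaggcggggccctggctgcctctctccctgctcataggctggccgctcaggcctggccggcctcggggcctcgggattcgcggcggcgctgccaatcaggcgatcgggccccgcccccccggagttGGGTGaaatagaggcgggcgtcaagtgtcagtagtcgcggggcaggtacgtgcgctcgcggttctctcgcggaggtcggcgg
BNC1: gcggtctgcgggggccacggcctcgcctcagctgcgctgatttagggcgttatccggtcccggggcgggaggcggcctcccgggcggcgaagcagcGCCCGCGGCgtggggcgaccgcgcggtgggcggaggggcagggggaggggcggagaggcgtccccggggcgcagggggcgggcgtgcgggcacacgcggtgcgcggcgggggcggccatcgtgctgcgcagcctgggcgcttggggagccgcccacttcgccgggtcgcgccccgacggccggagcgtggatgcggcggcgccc

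Counts of called members were set beside the share of all tested genes that were called (adjusted p under 0.05, limma voom with Benjamini-Hochberg adjustment). In PRMT5KO against sgNeg 6 of 9 members were called, 3 higher and 3 lower, beside 17.0% of all genes, of which 8.73% were higher and 8.30% lower. Groups did not overlap for 6 members, beside 19.2% of all genes, and the median log2 fold change was -0.06 for the members and -0.01 for all genes. In WDR77KO against sgNeg 2 of 9 members were called and both were lower, beside 3.39% of all genes, with 0.838% higher and 2.55% lower. Groups did not overlap for 3 members beside 10.6% of all genes, and the medians were -0.19 and 0.00. Calls went in both directions in PRMT5KO and downward in WDR77KO, although TFAP2A was higher in all 6 WDR77KO libraries without passing the threshold. The PRMT5KO count was 4 when any single library of sgNeg or sgPRMT5-2, or sgPRMT5-1 replicate 3, was left out, and 7 without sgPRMT5-1 replicate 1 or 2. For WDR77KO the count was 1 without sgNeg replicate 1 or 2, 0 without sgNeg replicate 3 and 4 without sgWDR77-1 replicate 1 (limma voom, where 6 members had an unadjusted p under 0.05 with all libraries).

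Each sgRNA was also set against sgNeg alone. With sgPRMT5-1 4 of 9 members were called (1 higher and 3 lower, 3.76% of all genes) and with sgPRMT5-2 7 of 9 (3 higher and 4 lower, 40.1% of all genes). With sgWDR77-1 only TFAP2A, 1 of 9, was called (2.71% of all genes), and with sgWDR77-2 3 of 9 were, all lower (4.97% of all genes). The sgPRMT5-1 count was 1 without sgNeg replicate 1 or sgPRMT5-1 replicate 2. The sgWDR77-1 count was 4 without sgWDR77-1 replicate 1 and, by limma voom, 0 when any single sgNeg library was left out (3 members at an unadjusted p under 0.05 with all libraries). The sgWDR77-2 count was 1 without sgNeg replicate 3 or sgWDR77-2 replicate 2. A test for any difference over the 5 conditions called 8 of 9 members and 35.8% of all genes, with GRHL2 the member not called. That count was 6 when any single library of sgPRMT5-2 or sgWDR77-2 was left out, and then KLF4 and TP73 no longer passed. The same held with upper quartile factors and with no filter. TP73 was also lost without sgNeg replicate 2 or 3 (adjusted p = 0.0976 and 0.104, limma voom). Nor did it pass without sgPRMT5-1 replicate 1 or 2 (adjusted p = 0.0570 and 0.0608, limma voom). All of these comparisons share the 3 sgNeg libraries, so a high or low value there enters each of them. The plot of CPM per library shows every value, and the plot of fold changes shows each sgRNA against sgNeg.

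**Figure D2:**
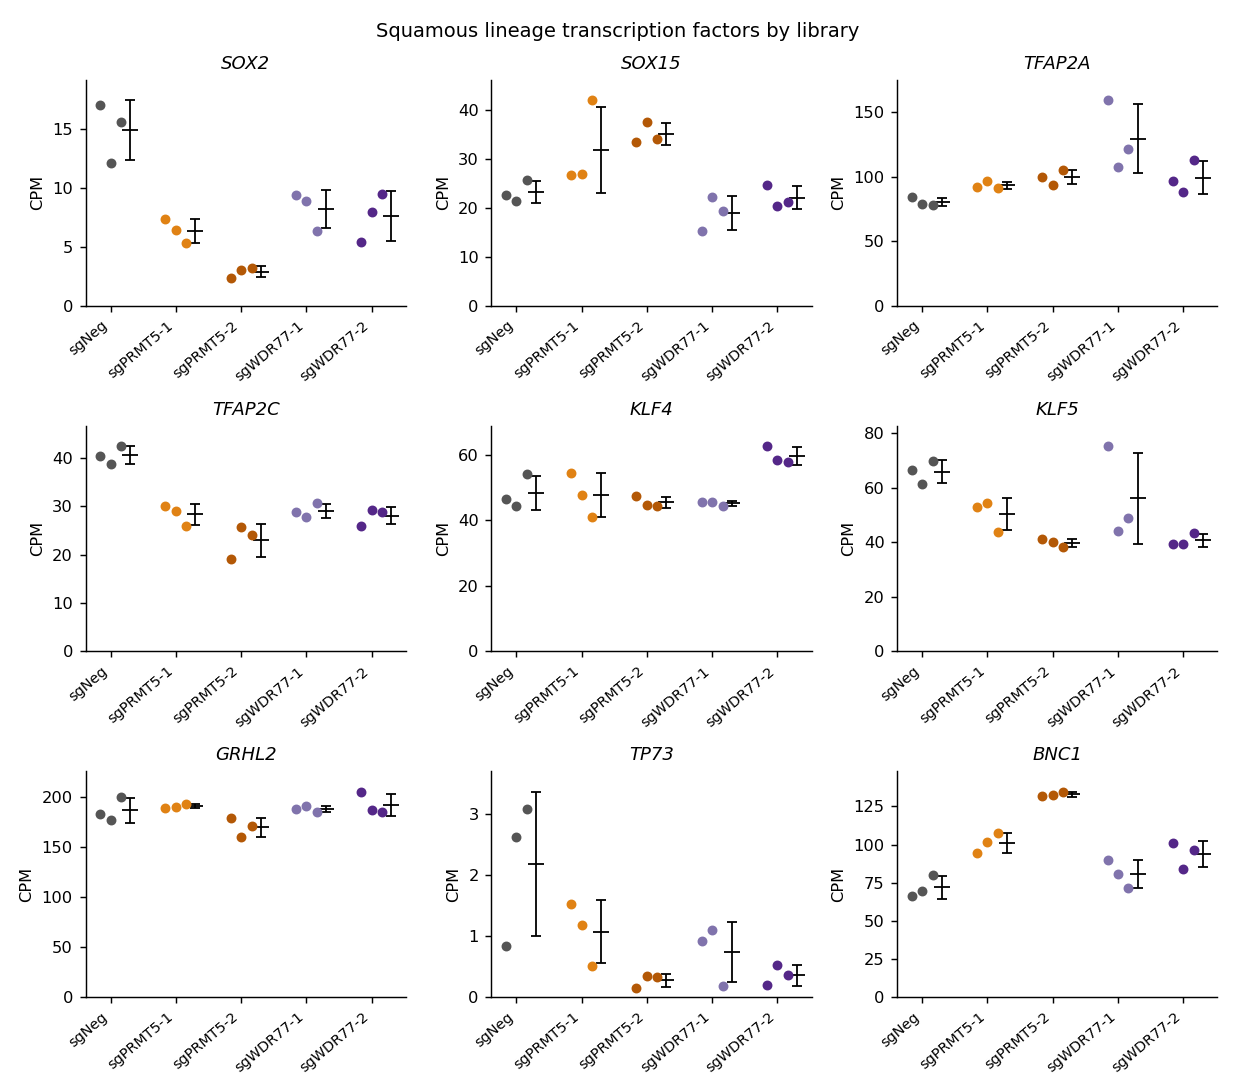
CPM of the 9 members in each of the 15 libraries. Points are libraries, and lines are mean and SD of 3 replicates per condition.

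SOX2, a driver of the squamous fate that pairs with p63, was at 17.1, 12.2 and 15.6 CPM in sgNeg. It was at 7.33, 6.45 and 5.31 CPM with sgPRMT5-1 and at 2.33, 3.06 and 3.21 CPM with sgPRMT5-2. WDR77-edited cells held it at 9.42, 8.88 and 6.39 CPM with sgWDR77-1 and at 5.39, 7.95 and 9.54 CPM with sgWDR77-2. Every edited library was below every sgNeg library, and the sgPRMT5-2 libraries were the lowest of all, on 15 to 19 reads each. SOX2 fell in PRMT5KO by a log2 fold change of -1.79 (95% interval -2.37 to -1.22, adjusted p = 0.00201 by limma voom). In WDR77KO it fell by -0.92 (95% interval -1.33 to -0.50, adjusted p = 0.0155 by limma voom). Side by side, the values of the sgRNAs were -1.22 for sgPRMT5-1, -2.36 for sgPRMT5-2, -0.83 for sgWDR77-1 and -0.98 for sgWDR77-2, and only sgWDR77-1 did not pass the threshold (adjusted p = 0.0756, limma voom), although it did without sgWDR77-1 replicate 1 (adjusted p = 0.0265) and in the fit of all 15 libraries (adjusted p = 0.0129). The mean fell to 42.6% of sgNeg with sgPRMT5-1 and 19.2% with sgPRMT5-2. The WDR77KO call was lost without sgNeg replicate 1 (adjusted p = 0.106) and without sgNeg replicate 3 (adjusted p = 0.0839, limma voom). The sgWDR77-2 call (adjusted p = 0.0221) was lost without the same libraries (adjusted p = 0.0822 and 0.0624) and without sgWDR77-2 replicate 1 or 2 (adjusted p = 0.0590 and 0.0777, limma voom). With a replicate block the sgWDR77-2 call was lost as well (adjusted p = 0.0538, limma voom).

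SOX15, a SOX factor of stratified epithelium, took another course. It was at 22.7, 21.4 and 25.6 CPM in sgNeg, at 26.7, 26.8 and 41.9 CPM with sgPRMT5-1, and at 33.4, 37.6 and 34.0 CPM with sgPRMT5-2. With sgWDR77-1 it was at 15.1, 22.2 and 19.3 CPM and with sgWDR77-2 at 24.6, 20.3 and 21.2 CPM. Each PRMT5KO library was above each sgNeg library, while the WDR77KO libraries overlapped sgNeg. SOX15 rose in PRMT5KO by 0.49 (95% interval 0.16 to 0.83, adjusted p = 0.0433 by limma voom), and its WDR77KO value was -0.19 (adjusted p = 0.601). The PRMT5KO call was narrow and was lost when any single sgNeg library was left out (adjusted p = 0.151, 0.163 and 0.0840 without replicate 1, 2 and 3, limma voom). It was also lost without sgPRMT5-1 replicate 3 (adjusted p = 0.0721) and without sgPRMT5-2 replicate 1, 2 or 3 (adjusted p = 0.0730, 0.0848 and 0.0740, limma voom). With sgPRMT5-2 alone SOX15 rose by 0.59 (adjusted p = 0.000420, limma voom), and the sgPRMT5-1 value was 0.40 (adjusted p = 0.204). The sgPRMT5-1 value passed at 0.43 with a replicate block (adjusted p = 0.0320, limma voom).

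TFAP2A and TFAP2C encode AP-2 factors that open the epidermal programme together with p63. TFAP2C was at 40.5, 38.8 and 42.4 CPM in sgNeg, at 30.1, 29.0 and 25.9 CPM with sgPRMT5-1, and at 19.1, 25.7 and 24.0 CPM with sgPRMT5-2. It was at 28.8, 27.8 and 30.7 CPM with sgWDR77-1 and at 26.0, 29.3 and 28.8 CPM with sgWDR77-2. All 12 edited libraries were below the lowest sgNeg library. TFAP2C fell by -0.69 in PRMT5KO (95% interval -0.96 to -0.42, adjusted p = 0.00561 by limma voom). It fell by -0.50 in WDR77KO (95% interval -0.73 to -0.27, adjusted p = 0.0155 by limma voom). The sgRNA values were -0.53 for sgPRMT5-1, -0.84 for sgPRMT5-2, -0.45 for sgWDR77-1 and -0.54 for sgWDR77-2, and only sgWDR77-1 did not pass (adjusted p = 0.0947, or 0.0417 without its replicate 1 and 0.0152 in the fit of all 15 libraries, limma voom). The WDR77KO call was lost without sgNeg replicate 1, 2 or 3 (adjusted p = 0.0797, 0.0525 and 0.106, limma voom). The sgPRMT5-1 call was lost without sgNeg replicate 1 or sgPRMT5-1 replicate 2 (adjusted p = 0.0502 and 0.0649, limma voom). For sgWDR77-2 the same held for sgNeg replicate 1, sgNeg replicate 3 and sgWDR77-2 replicate 2 (adjusted p = 0.0509, 0.0606 and 0.0663, limma voom). A replicate block ended the sgWDR77-2 call too (adjusted p = 0.0538, limma voom).

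TFAP2A moved opposite to its paralog. It was at 84.0, 79.1 and 78.4 CPM in sgNeg, at 92.1, 96.6 and 91.1 CPM with sgPRMT5-1, and at 100, 93.8 and 105 CPM with sgPRMT5-2. With sgWDR77-1 it was at 159, 108 and 121 CPM and with sgWDR77-2 at 96.9, 87.8 and 113 CPM. Every edited library lay above every sgNeg library, with sgWDR77-1 highest and most spread. TFAP2A rose by 0.25 in PRMT5KO (95% interval 0.08 to 0.41, adjusted p = 0.0399 by limma voom), a call lost without sgNeg replicate 1, 2 or 3 (adjusted p = 0.1002, 0.127 and 0.151). Leaving out sgPRMT5-1 replicate 3 ended it too (adjusted p = 0.0545), as did leaving out sgPRMT5-2 replicate 1, 2 or 3 (adjusted p = 0.0793, 0.0762 and 0.0844, limma voom). The fit of all 15 libraries (adjusted p = 0.0829) and a replicate block (adjusted p = 0.0694) ended it as well. So did library totals alone (adjusted p = 0.0974) and no filter (adjusted p = 0.0863, limma voom). With sgPRMT5-2 alone TFAP2A rose by 0.30 (adjusted p = 0.00480), a call lost in the fit of all 15 libraries (adjusted p = 0.0602, limma voom). The larger WDR77KO value of 0.48 did not pass the threshold (adjusted p = 0.101, limma voom), although it did without sgWDR77-1 replicate 1 (adjusted p = 0.0465). It also passed in the fit of all 15 libraries (adjusted p = 0.00558) and with sgRNAs as separate groups (adjusted p = 0.0305, limma voom). With sgWDR77-1 alone TFAP2A rose by 0.69 (adjusted p = 0.0271, limma voom), and without sgNeg replicate 1, 2 or 3 the adjusted p was 0.108, 0.119 and 0.183.

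KLF5, a KLF factor of basal squamous cells, was at 66.4, 61.3 and 69.8 CPM in sgNeg. It was at 52.9, 54.5 and 43.7 CPM with sgPRMT5-1 and at 41.0, 39.9 and 38.1 CPM with sgPRMT5-2. With sgWDR77-1 it was at 75.2, 44.2 and 48.7 CPM and with sgWDR77-2 at 39.5, 39.2 and 43.4 CPM. A single WDR77KO library, sgWDR77-1 replicate 1, was above all sgNeg libraries, and the other 11 edited libraries were below them. KLF5 fell by -0.57 in PRMT5KO (95% interval -0.82 to -0.32, adjusted p = 0.00767 by limma voom). With sgPRMT5-1 alone it fell by -0.40 (adjusted p = 0.0461, limma voom), a call lost without sgNeg replicate 1, 2 or 3 (adjusted p = 0.115, 0.0576 and 0.106). It was lost without sgPRMT5-1 replicate 1, 2 or 3 too (adjusted p = 0.0832, 0.0819 and 0.139, limma voom), and in the fit of all 15 libraries (adjusted p = 0.149). The WDR77KO value of -0.48 was not past the threshold (adjusted p = 0.136) but passed in the fit of all 15 libraries (adjusted p = 0.0164, limma voom), and without sgWDR77-1 replicate 1 it was -0.60 with an adjusted p of 0.00226 by limma voom. Beside a fall of -0.70 with sgWDR77-2 (adjusted p = 0.00125, limma voom), the sgWDR77-1 value was -0.24 and became -0.49 without that library (adjusted p = 0.0165).

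KLF4, a KLF factor of differentiating layers, stayed close to sgNeg. It was at 46.4, 44.4 and 54.1 CPM in sgNeg, at 54.4, 47.5 and 40.9 CPM with sgPRMT5-1, and at 47.4, 44.7 and 44.3 CPM with sgPRMT5-2. It was at 45.6, 45.5 and 44.3 CPM with sgWDR77-1 and at 62.6, 58.5 and 57.6 CPM with sgWDR77-2. All 3 sgWDR77-2 libraries stood above all sgNeg libraries, and the other edits overlapped sgNeg. KLF4 was called in the test for any difference over the 5 conditions (adjusted p = 0.0349, limma voom). It was not called there when a single sgPRMT5-2 library was left out (adjusted p = 0.0527, 0.0650 and 0.0628 for replicates 1, 2 and 3) or a single sgWDR77-2 library (adjusted p = 0.119, 0.0923 and 0.0690, limma voom). No sgRNA passed alone, and the largest value was 0.30 with sgWDR77-2 (95% interval 0.07 to 0.53, adjusted p = 0.121 by limma voom). The PRMT5KO value was -0.06 (95% interval -0.28 to 0.16) and the WDR77KO value 0.11 (95% interval -0.17 to 0.39).

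GRHL2 was at 183, 177 and 200 CPM in sgNeg, at 189, 191 and 193 CPM with sgPRMT5-1, and at 179, 160 and 171 CPM with sgPRMT5-2. It was at 188, 192 and 185 CPM with sgWDR77-1 and at 205, 187 and 185 CPM with sgWDR77-2. The libraries of every sgRNA overlapped sgNeg. The GRHL2 value was -0.06 in PRMT5KO (95% interval -0.23 to 0.10, adjusted p = 0.602 by limma voom). In WDR77KO it was 0.03 (95% interval -0.15 to 0.21, adjusted p = 0.920 by limma voom). With sgPRMT5-2 alone it was -0.14 (adjusted p = 0.134, limma voom), and it passed at -0.18 without sgNeg replicate 2 (adjusted p = 0.0382) and at -0.22 with library totals alone (adjusted p = 0.0124). TP63, which encodes p63, was past no threshold against sgNeg, with values of 0.03 in PRMT5KO (95% interval -0.18 to 0.24) and 0.20 in WDR77KO (95% interval -0.06 to 0.45). Its sgWDR77-1 libraries, at 385 to 528 CPM, all lay above sgNeg at 339 to 355 CPM (0.33, adjusted p = 0.222, limma voom). The test over the 5 conditions did not call TP63 (adjusted p = 0.0891, limma voom). It did with library totals alone, and without sgPRMT5-1 replicate 3 or sgWDR77-1 replicate 3. TP63 was lower with sgPRMT5-2 than with sgPRMT5-1, by -0.23 (adjusted p = 0.0495, limma voom), with overlapping libraries.

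TP73, the paralog of TP63, was close to the limit of detection, with 5, 16 and 17 reads in the sgNeg libraries. It had 10, 7 and 3 reads with sgPRMT5-1, and 1, 2 and 2 reads with sgPRMT5-2. The WDR77-edited cells gave 5, 6 and 1 reads with sgWDR77-1 and 1, 3 and 2 reads with sgWDR77-2. Most edited libraries were low, but sgNeg replicate 1 was no higher than several of them, and fold changes from so few reads are imprecise. TP73 fell with sgPRMT5-2 by -2.54 (95% interval -4.02 to -1.05, adjusted p = 0.00749 by limma voom), and without sgPRMT5-2 replicate 1 the adjusted p was 0.0513. Its values of -1.72 in PRMT5KO (adjusted p = 0.0531, limma voom) and -1.86 in WDR77KO (adjusted p = 0.0834) were not past the threshold. Without sgNeg replicate 1 they were -2.28 (adjusted p = 0.0331) and -2.42 (adjusted p = 0.0180, limma voom). The PRMT5KO value also passed without sgPRMT5-1 replicate 1 or replicate 2 (adjusted p = 0.0223 and 0.0364, limma voom), and in the fit of all 15 libraries both values passed (adjusted p = 0.0193 in PRMT5KO, 0.0289 in WDR77KO).

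BNC1, a zinc finger factor of basal keratinocytes, was at 66.0, 69.5 and 80.4 CPM in sgNeg. It was at 94.6, 102 and 107 CPM with sgPRMT5-1 and at 132, 132 and 135 CPM with sgPRMT5-2. It was at 89.6, 80.9 and 71.7 CPM with sgWDR77-1 and at 101, 84.1 and 96.5 CPM with sgWDR77-2. The PRMT5KO libraries were all above sgNeg, those of sgPRMT5-2 highest and tightly grouped, and those of sgWDR77-2 were above sgNeg too, whereas sgWDR77-1 overlapped sgNeg. BNC1 rose by 0.68 in PRMT5KO (95% interval 0.41 to 0.95, adjusted p = 0.00584 by limma voom), and without sgNeg replicate 1 the adjusted p was 0.0506. Its WDR77KO value of 0.28 was not past the threshold (adjusted p = 0.252, limma voom). The sgRNA values were 0.48 for sgPRMT5-1, 0.88 for sgPRMT5-2, 0.20 for sgWDR77-1 and 0.38 for sgWDR77-2, of which both PRMT5 sgRNAs passed. The sgWDR77-2 value had an adjusted p of 0.0548, or 0.0411 in the fit of all 15 libraries (limma voom). For sgPRMT5-1 the call was lost without sgNeg replicate 1 (adjusted p = 0.0795) and without sgPRMT5-1 replicate 2 (adjusted p = 0.0670, limma voom).

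**Figure D3:**
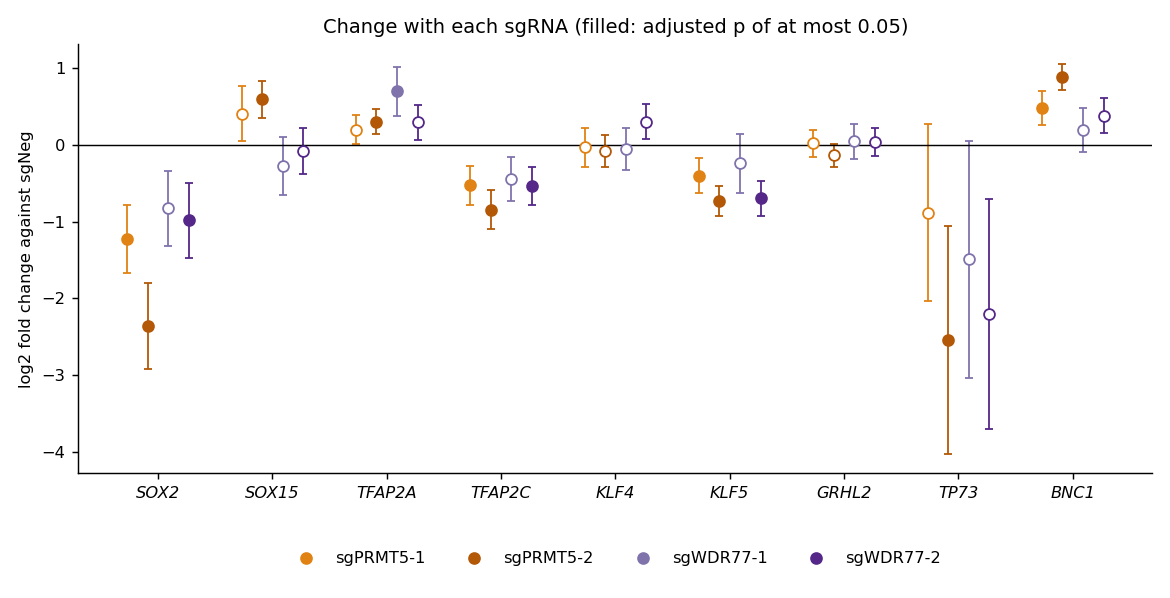
Log2 fold change of the 9 members for each sgRNA against sgNeg with 95% intervals. Filled points had an adjusted p under 0.05 (limma voom, 3 libraries per condition).

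The PRMT5 sgRNAs differed from each other in size for several members. Against sgPRMT5-1, sgPRMT5-2 had 3 of 9 members called, beside 19.2% of all genes. SOX2 was lower with sgPRMT5-2 by -1.14 (adjusted p = 0.00569 by limma voom, standard error 0.271). BNC1 was higher by 0.40 (adjusted p = 0.000970 by limma voom, standard error 0.0763), and KLF5 was lower by -0.33 (adjusted p = 0.0294, standard error 0.104). All 3 went further from sgNeg with sgPRMT5-2, although PRMT5 RNA was no lower there. Leaving out sgPRMT5-1 replicate 3 raised the count to 7, and the KLF5 call was lost without sgPRMT5-1 replicate 1 (adjusted p = 0.110) or replicate 2 (adjusted p = 0.132, limma voom). Leaving out sgPRMT5-2 replicate 1, 2 or 3 ended it as well (adjusted p = 0.0819, 0.0783 and 0.111, limma voom). Between the WDR77 sgRNAs 0 of 9 members were called by limma voom, beside 0.121% of all genes, and 3 members had an unadjusted p under 0.05. These were KLF4 at 0.39, KLF5 at -0.43 and TFAP2A at -0.38 for sgWDR77-2 against sgWDR77-1.

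PRMT5KO was also set directly against WDR77KO, where 3 of 9 members were called beside 14.0% of all genes. SOX15 was higher in PRMT5KO by 0.70 (95% interval 0.41 to 0.98, adjusted p = 0.00436 by limma voom). Its PRMT5KO libraries ran from 26.7 to 41.9 CPM and its WDR77KO libraries from 15.1 to 24.6 CPM, without overlap. BNC1 was higher by 0.42 (adjusted p = 0.0176, limma voom) and SOX2 lower by -0.86 (adjusted p = 0.0322, limma voom), both with overlapping libraries. Without sgPRMT5-2 replicate 1, 2 or 3 BNC1 no longer passed (adjusted p = 0.0606, 0.0575 and 0.0591, limma voom), and neither did SOX2 (adjusted p = 0.0906, 0.0838 and 0.0793). BNC1 was also lost without sgWDR77-1 replicate 2 or 3 (adjusted p = 0.0543 and 0.0540, limma voom). SOX2 was lost without sgWDR77-1 replicate 1 or 2 (adjusted p = 0.0549 and 0.0692) and without sgWDR77-2 replicate 2 or 3 (adjusted p = 0.0534 and 0.0641, limma voom). With a replicate block its adjusted p was 0.0525 (limma voom). TFAP2C at -0.17 (95% interval -0.40 to 0.06) and KLF5 at -0.08 (95% interval -0.38 to 0.22) were not separated between PRMT5KO and WDR77KO.

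Gene lists around the members were read for context, by counts of called genes and by their median beside all genes. Of all genes 17.0% were called in PRMT5KO and 3.39% in WDR77KO, the shares to hold each count against. Of 33 p63 family members and cofactors 28 were tested, and in PRMT5KO 3 were higher, 5 lower and 20 not past the threshold (median -0.09, all genes -0.01). In WDR77KO 0 were higher, 1 lower and 27 not past it (limma voom, median 0.06, all genes 0.00). PAX9 fell in PRMT5KO by -0.79 (adjusted p = 0.0143) while ETS1 rose by 0.84 (adjusted p = 0.00882) and RUNX1 by 0.45 (adjusted p = 0.0124, limma voom). Without sgNeg replicate 1 these calls were lost (adjusted p = 0.0611, 0.0624 and 0.0817 in that order, limma voom), and without sgNeg replicate 2 PAX9 and RUNX1 did not pass either (adjusted p = 0.0560 and 0.0578). Of 20 settings the call held in 17 for PAX9, 19 for ETS1 and 17 for RUNX1. In sgNeg, sgPRMT5-1 and sgPRMT5-2, PAX9 averaged 103, 78.7 and 46.3 CPM, ETS1 151, 216 and 342 CPM, and RUNX1 93.3, 115 and 144 CPM. The pooled fit counts a difference between sgRNAs of a gene as spread. ID1, whose PRMT5KO value of -0.98 did not pass (adjusted p = 0.0574, or 0.0119 and 0.0193 without sgPRMT5-1 replicate 1 and 2), fell in WDR77KO by -0.50 (adjusted p = 0.0143, limma voom), a call lost without sgNeg replicate 1 (adjusted p = 0.126) or replicate 2 (adjusted p = 0.0566). Its mean was 175 CPM in sgNeg, 151 with sgPRMT5-1 and 52.7 with sgPRMT5-2, and the PRMT5KO value passed with sgRNAs as separate groups (adjusted p = 0.00000000992, limma voom).

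The members' own paralogs numbered 40, of which 21 were tested in PRMT5KO (17.0% of all genes called) and 20 in WDR77KO (3.39%). In PRMT5KO 0 were higher, 3 lower and 18 not past the threshold (limma voom, median -0.09), and in WDR77KO 0 were higher, 1 lower and 19 not past it (median -0.05). KLF10 fell in PRMT5KO by -0.58 (adjusted p = 0.0141) and in WDR77KO by -0.49 (adjusted p = 0.0397, limma voom), and without sgNeg replicate 1 or 2 neither value passed (adjusted p = 0.0688 and 0.0580 in PRMT5KO, 0.177 and 0.149 in WDR77KO). The WDR77KO value was also lost without sgNeg replicate 3 (adjusted p = 0.133), sgWDR77-1 replicate 2 or 3 (adjusted p = 0.0823 and 0.0589) and sgWDR77-2 replicate 2 or 3 (adjusted p = 0.0936 and 0.0505, limma voom), and with a replicate block (adjusted p = 0.0829). SOX13 fell by -0.40 (adjusted p = 0.0138) and SOX12 by -0.59 (adjusted p = 0.0392) in PRMT5KO, and without sgNeg replicate 1 the adjusted p values were 0.0677 and 0.186 (limma voom). Without sgNeg replicate 2 they were 0.0521 and 0.103, and SOX12 was lost too when any single sgPRMT5-2 library was left out (adjusted p = 0.0808, 0.0785 and 0.0796, limma voom). SOX9 and GRHL1 were past the threshold in neither, with PRMT5KO values of 0.42 and -0.09 and WDR77KO values of 0.34 and 0.59. In the fit of all 15 libraries SOX9 passed in PRMT5KO (adjusted p = 0.00473) and GRHL1 in WDR77KO (adjusted p = 0.0206, limma voom). SOX9 also passed without sgPRMT5-1 replicate 1 or 3 (adjusted p = 0.0367 and 0.0499), and GRHL1 without sgWDR77-2 replicate 1 (adjusted p = 0.0426, limma voom). By single sgRNA, 1 paralog was higher and 1 lower with sgPRMT5-1 (3.76% of all genes called), and 3 were higher and 6 lower with sgPRMT5-2 (40.1%). With sgWDR77-1 0 were higher and 0 lower (2.71%), and with sgWDR77-2 1 was higher and 2 were lower (4.97%). KLF6 averaged 61.3 CPM in sgNeg, 80.9 with sgPRMT5-1, 221 with sgPRMT5-2, 53.7 with sgWDR77-1 and 136 with sgWDR77-2.

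Of 33 basal squamous genes bound or activated by p63 that the libraries listed, 31 were tested (17.0% of all genes called in PRMT5KO, 3.39% in WDR77KO). Of these, in PRMT5KO 7 were higher, 8 lower and 16 not past the threshold (median -0.06). In WDR77KO 2 were higher, 6 lower and 23 not past it (median -0.08). KRT15 fell by -3.70 in PRMT5KO (adjusted p = 0.0000450, limma voom) and by -1.41 in WDR77KO (adjusted p = 0.000351). KRT5 fell by -2.41 in PRMT5KO (adjusted p = 0.00650, limma voom) and by -3.42 in WDR77KO (adjusted p = 0.00000159). KRT6A went with them, at -2.66 (adjusted p = 0.00371) and -2.92 (adjusted p = 0.000212, limma voom). RNA of these 3 keratins was thus lower in both edits. TP63 RNA was past no threshold against sgNeg, but RNA libraries hold no p63 protein values, and a link to p63 was not tested. KRT17 was past the threshold in neither edit, at -0.04 and 0.42, nor was KRT16, at -0.67 and -0.45. By condition KRT17 averaged 807 CPM in sgNeg, 805 with sgWDR77-1 and 1431 with sgWDR77-2. IGFBP3 fell in PRMT5KO by -1.54 (adjusted p = 0.000117, limma voom), and its WDR77KO value was -0.08 (adjusted p = 0.877).

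Of 35 keratinocyte differentiation genes that the libraries listed, only 12 had enough reads to be tested (17.0% of all genes called in PRMT5KO, 3.39% in WDR77KO). In PRMT5KO 1 was higher, 2 were lower and 9 were not past the threshold (median 0.03), and in WDR77KO 0 were higher, 2 lower and 10 not past it (limma voom, median 0.01). KRT13 fell by -5.08 in PRMT5KO (adjusted p = 0.00000787, limma voom) and by -2.47 in WDR77KO (adjusted p = 0.0000138). KLK7 fell by -1.67 (adjusted p = 0.00603) and -1.46 (adjusted p = 0.0197, limma voom), the WDR77KO call being lost without sgNeg replicate 2 (adjusted p = 0.111) or replicate 3 (adjusted p = 0.0907). CDKN1A rose in PRMT5KO by 1.08 (adjusted p = 0.0271, limma voom), a call lost without sgNeg replicate 1, 2 or 3 (adjusted p = 0.112, 0.117 and 0.0683). With a replicate block this call was lost as well (adjusted p = 0.0517, limma voom), and it held under 15 of 20 settings. The WDR77KO value of CDKN1A was 0.01 (adjusted p = 0.991, limma voom). CDKN1A averaged 43.9 CPM in sgNeg, 66.0 with sgPRMT5-1, 133 with sgPRMT5-2, 39.5 with sgWDR77-1 and 51.3 with sgWDR77-2.

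All 26 epithelial genes regulated by GRHL2 were tested (17.0% of all genes called in PRMT5KO, 3.39% in WDR77KO). In PRMT5KO 2 were higher, 5 lower and 19 not past the threshold (median -0.10), and in WDR77KO 1 was higher, 1 lower and 24 not past it (median -0.09). CDH1 rose by 0.305 in PRMT5KO (adjusted p = 0.00955, limma voom) and by 0.40 in WDR77KO (adjusted p = 0.0175), while PROM2 fell by -0.63 (adjusted p = 0.0109) and -0.55 (adjusted p = 0.00596). Without sgNeg replicate 2 neither CDH1 value passed (adjusted p = 0.0557 and 0.118), the WDR77KO value being lost without replicate 1 or 3 as well (adjusted p = 0.0801 and 0.0721), and without sgNeg replicate 1 neither PROM2 value did (adjusted p = 0.0642 and 0.0598, limma voom). TMC4 fell by -1.07 in PRMT5KO (adjusted p = 0.00703, limma voom), and without sgNeg replicate 1 it no longer passed (adjusted p = 0.0516). Called genes of this list went in both directions, and the plot of list genes shows the spread of each list around 0.

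**Figure D4:**
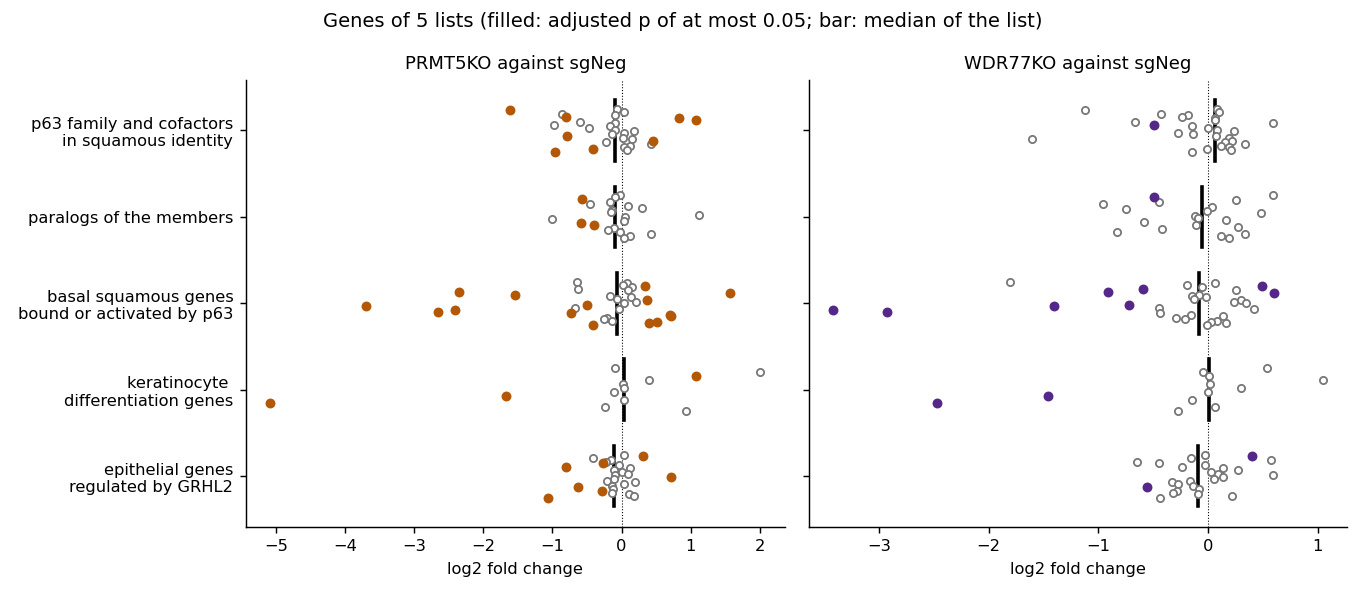
Log2 fold change of each tested gene in 5 lists for PRMT5KO and WDR77KO against sgNeg. Filled points had an adjusted p under 0.05 (limma voom, 6 against 3 libraries), and bars are list medians.

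Genes whose level over the 15 libraries was most like that of each member were named by Pearson r, a description that carries the differences between the 5 conditions. HEG1 (r = 0.958), ALDH3B1 (0.952) and ALDH3A1 (0.950) were most like SOX2, and MED8 (r = 0.953), FSCN1 (0.948) and PLOD3 (0.945) most like SOX15. BNC1 was followed closely by CDH2 (r = 0.976), F3 (0.976) and CAVIN1 (0.967), so BNC1 and the mesenchymal cadherin ran side by side over the libraries. TFAP2C was most like CTSD (r = 0.942), MDK (0.931) and RPL22 (0.930), and TFAP2A most like EIF4G3 (r = 0.901), USP53 (0.893) and MAGI1 (0.891). For KLF5 the nearest genes were SEPTIN6 (r = 0.919), CBLL1 (0.911) and ELOVL5 (0.909). KLF4 went with CITED2 (r = 0.917), the early response gene FOS (0.887) and KRT17 (0.807). GRHL2 had weaker partners in TUBGCP5 (r = 0.814), DNPH1 (0.801) and RGS3 (0.800), and TP73, on few reads, had LIN7C (r = 0.869) and POLR2M (0.858). Among the members, SOX2 and TFAP2C were the closest pair (r = 0.910), and SOX2 and BNC1 ran opposite (r = -0.879).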

How the data were processed

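RNA of 15 libraries, 3 per condition, was sequenced by the authors, who aligned reads with STAR and counted them per gene with HTSeq, and the deposited values are in the unit count. The authors used DESeq2 for their own tests. The check of units could not read the deposited text layout, so tests used limma voom in R in place of a tool made for counts. Libraries held 5146711 to 6730428 reads on genes. HTSeq's summary lines were left out: 2.75% to 7.16% of reads lay outside genes, 7.09% to 7.93% were ambiguous and 9.49% to 13.1% were placed more than once. Chi-square divided by its degrees of freedom ran from 1.58 to 19.4 between replicates, more than counting noise alone gives.

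Counts were scaled with a trimmed mean of log ratios (trims 0.3 and 0.05) and genes with a mean scaled count of at least 3 were fitted with limma 3.58.1 in R 4.3.3, with Benjamini-Hochberg adjustment at 0.05. The scripts were tested on simulated data. Exon lengths came from GENCODE, with 60463 of the 60649 genes matched. Members were named in every comparison, targeted and marker genes as checks, and list genes by the smallest p in their list. Likeness used genes with a mean count of at least 50. Alternatives were other scalings, filters of 0 and 10, limma trend, a replicate block, joint fits, a covariate and left-out libraries. The members and lists were chosen with earlier results of these data known.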

Additional observations from a re-analysis of the deposited data

Results flagged for a closer look

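A library far from the other 5 of its edit was marked by a gap test (Dixon) in 2 of 18 groups. About 1 in 20 groups would be marked by chance if all libraries of a group were of the same kind. Each group pools 2 sgRNAs, so that rate is only a guide. KLF5 in sgWDR77-1 replicate 1 was at 75.2 CPM, and GRHL2 in sgWDR77-2 replicate 1 was at 205 CPM. For KLF5 the WDR77KO value passed without that library, and also with it in the fit of all 15 libraries; no cause was tested.

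Differences between the sgRNAs of PRMT5 were marked for KLF5 (-0.33), BNC1 (0.40) and SOX2 (-1.14), as log2 fold change of sgPRMT5-2 against sgPRMT5-1. PRMT5 RNA was not called different between these sgRNAs (0.23, adjusted p = 0.146 by limma voom with Benjamini-Hochberg adjustment). The RNA libraries hold no protein values, so from them a difference in the PRMT5 protein left and an effect on other genes cannot be told apart.

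Differences between PRMT5KO and WDR77KO were marked for SOX15 (0.70), BNC1 (0.42) and SOX2 (-0.86). These comparisons pool sgRNAs that themselves differed for BNC1 and SOX2.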

How the results depend on the processing

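In PRMT5KO SOX2, TFAP2C and KLF5 kept direction and call under all 20 settings, with SOX2 from -1.96 to -1.61. BNC1 kept its call under 19 of 20, SOX15 under 9 and TFAP2A under 7, and the count of members called ran from 4 to 7. In WDR77KO SOX2 kept its call under 17 of 20 and TFAP2C under 15. Effects of sgNeg libraries recur in every comparison with sgNeg, and 3 replicates from a single line limit all tests. TP73, on 1 to 17 reads, is limited by depth. Other scalings moved no all-gene median by over 0.1. The covariate for the share of reads outside genes, and the fit without the 3 libraries with the largest share (sgNeg replicate 2, sgWDR77-1 replicates 2 and 3), were chosen after seeing the data. That fit leaves a single sgWDR77-1 library, replicate 1, in which KLF5 was at 75.2 CPM, so its sgWDR77-1 values stand for that library and not for a group. DESeq2 as an alternative tool was not run. For every moved value below the cause was not tested, beyond fewer libraries or more genes where the setting makes it so.

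Counts of members called (limma voom) moved as follows. For WDR77KO against sgNeg, 2 became 1 with no filter, 5 with all 15 libraries in a joint fit, 0 without the 3 libraries, and 0 to 4 when single libraries were left out. For sgPRMT5-1 against sgNeg, 4 became 1 to 3 with single libraries left out. For sgWDR77-1 against sgNeg, 1 became 3 in the joint fit, 2 without the 3 libraries (sgWDR77-1 replicate 1 alone) and 0 to 4 with single libraries left out. For sgWDR77-2 against sgNeg, 3 became 1 with a replicate block and 1 to 3 with single libraries left out. For sgPRMT5-2 against sgPRMT5-1, 3 became 2 to 7 with single libraries left out. For sgWDR77-2 against sgWDR77-1, 0 became 2 with the covariate and 2 without the 3 libraries, when sgWDR77-1 is replicate 1 alone. For PRMT5KO against WDR77KO, 3 became 1 without the 3 libraries and 1 to 3 with single libraries left out.

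The labels do not pair replicates. In no pair of conditions were all 3 correlations of equal numbers over 0.1, and 5 of 15 libraries were closest to their own number. With the replicate block the members called were 5 in PRMT5KO, 2 in WDR77KO, 5 with sgPRMT5-1, 7 with sgPRMT5-2, 1 with sgWDR77-1, 1 with sgWDR77-2, 3 for sgPRMT5-2 against sgPRMT5-1, 0 for sgWDR77-2 against sgWDR77-1 (limma voom), 2 for PRMT5KO against WDR77KO and 8 over the 5 conditions.

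The sign of some small log2 fold changes turned, none of them past the threshold. In PRMT5KO against sgNeg TP63 was -0.0313 with library totals alone and ran from -0.0313 (without sgPRMT5-1 replicate 2) to 0.0587 (TP63, PRMT5KO against sgNeg, without sgPRMT5-2 replicate 2), and with single libraries left out GRHL1 was -0.21 to 0.018. In WDR77KO against sgNeg CDKN1A was -0.0062 with library totals alone, -0.0923 without the 3 libraries and -0.073 to 0.17 with single libraries left out. There GRHL2 ran from -0.002 to 0.0749, IGFBP3 from -0.24 to 0.10 and PAX9 from -0.0189 to 0.16. In sgPRMT5-1 against sgNeg GRHL2 was -0.0297 with library totals alone, -0.0046 with the covariate, -0.0191 without the 3 libraries and -0.0191 to 0.0434 with single libraries left out, and KLF4 was -0.12 to 0.0579. In sgWDR77-1 against sgNeg KLF5 was 0.16 and GRHL2 -0.0159 without the 3 libraries (sgWDR77-1 replicate 1 alone), and with single libraries left out GRHL2 was -0.004 to 0.0891 and KLF4 -0.12 to 0.0186.

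Between the sgRNAs of a gene, KLF4 in sgPRMT5-2 against sgPRMT5-1 was -0.16 to 0.0401 with single libraries left out. In sgWDR77-2 against sgWDR77-1 GRHL2 was -0.0095 with upper quartile factors, -0.0056 with library totals alone and -0.0265 to 0.0591 with single libraries left out, and SOX2 was -0.30 to 0.0879. In PRMT5KO against WDR77KO KLF5 was -0.15 to 0.0538 and TP73 -0.15 to 0.43.

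Of the 27 genes most like the members by Pearson r, 5 were named by Spearman too. By longest transcript, of the 9 places in the order of levels 3 stayed in sgNeg, 5 with sgPRMT5-1 and 5 with sgWDR77-1.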

Other observations

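RNAs that overlap the members were read because they could carry reads counted for them. The strand setting of the counting is not given, and the library kit is named differently in the labels and the methods, so whether reads of the opposite strand entered these counts is not known. TFAP2A shares 941 exon bases with TFAP2A-AS2 and 438 with TFAP2A-AS1 on the opposite strand, and these had 0 to 13 and 1 to 8 reads per library. TP73 shares 633 exon bases with TP73-AS1, which had 0 reads. KLF4 shares 357 exon bases with an opposite-strand long noncoding RNA, ENSG00000289987, that the count files do not list. SOX15 shares 35 exon bases with MPDU1, whose log2 fold change was 0.17 in PRMT5KO (adjusted p = 0.260 by limma voom, Benjamini-Hochberg adjustment), against -0.09 in WDR77KO (adjusted p = 0.828). SOX2 lies within SOX2-OT on the same strand with 0 shared exon bases, and SOX2-OT had 0 to 10 reads per library.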
